A study of Mus musculus with 8 samples.

Results

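Mitotic spindle and kinetochore genes encode the proteins that condense chromosomes, attach them to microtubules, hold back anaphase until all are attached, and divide the cell. A set of 60 such genes was followed through NF-YA CUT&RUN of mouse muscle stem cells (MuSCs), and the members of the set are all peaks of the deposited table whose gene symbol equals one of the 60. This gave 43 of the 7196 peaks, assigned to 34 of the 60 genes, while 26 genes had no peak. This rule uses the symbol and no signal of the libraries, but the genes were chosen with earlier results of these data known.

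The study asked how binding of NF-YA depends on TAF4A, a subunit of the general transcription factor TFIID. Both genotypes were on the C57BL/6 background, and both groups held cultured MuSCs labelled activated/proliferating. Taf4asKO cells came from tamoxifen-treated adult mice in which Cre under control of *Pax7*, a gene of MuSCs, deleted floxed exons of *Taf4a*. Control mice were littermates that carried the same floxed alleles, with or without the Cre allele, and the sample titles call them WT. The sources used here do not say which of these each control library came from, nor whether those mice received tamoxifen. Male and female mice were used in the study. There were 2 NF-YA libraries per genotype, and nothing in the labels says that they came from separate animals or cultures, so that p-values measure only the spread between these libraries. Because the table holds binding and no expression, loss of *Taf4a* transcript could not be checked in it. Of 3 MuSC genes looked at as a description, *Pax7* and *Myf5* had no NF-YA peak. *Myod1* had 2 peaks, and the stronger one, 45 bases from the start, had normalised signals of 51 and 52 in control replicates 1 and 2 and 26 and 20 in Taf4asKO replicates 1 and 2. No test result is given for it, and 28.6% of all tested peaks were likewise lower in both Taf4asKO libraries.

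Signals are read numbers in a peak after the authors' normalisation, rounded to whole numbers. The reads behind them were very uneven, with 351696 and 111269 reads in peaks for control replicates 1 and 2 and 734552 and 505241 for Taf4asKO replicates 1 and 2. The median peak of the set rested on 37 and 12 reads in the control libraries and on 97 and 70 reads in the Taf4asKO libraries. Both control libraries had fewer reads than both Taf4asKO libraries, and the number of reads and the genotype cannot be told apart.

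NF-Y is a trimer of NF-YA, NF-YB and NF-YC. NF-YB and NF-YC form a histone-like dimer, and NF-YA makes the contact with the pentamer CCAAT in the DNA. CCAAT boxes are a known feature of promoters that are used in G2 and M phase. There they often occur in several copies and beside a cell cycle genes homology region (CHR), whose core letters are TTTGAA and which is read by the MuvB complex, repressive as DREAM in resting cells and activating with B-MYB and FOXM1 in dividing cells. MuSCs leave quiescence to proliferate during muscle regeneration, and genes of mitosis are switched on in that phase.

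Sequences from 7 of the 10 roles show how the CCAAT boxes lie under peaks of the set, and 3 of the 7 also hold TTTGAA. In each role the strongest peak near a start with 2 or more CCAAT boxes was taken among genes with an entry in the RefSeq promoter table. Peaks in which a CCAAT or TTTGAA lay in an annotated UTR were passed over, so that these are not the strongest peaks of every role. Each is given 5′ to 3′ on the strand of the gene in mm10, and capitals mark CCAAT and TTTGAA, which appear as ATTGG and as TTCAAA where they read on the opposite strand.
*Tubb4b* (chr2:25224805-25224977, minus strand): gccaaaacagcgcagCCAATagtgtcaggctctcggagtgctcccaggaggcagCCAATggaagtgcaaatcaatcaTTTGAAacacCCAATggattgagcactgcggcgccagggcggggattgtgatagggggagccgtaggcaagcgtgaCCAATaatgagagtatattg
*Hmgb2* (chr8:57511755-57511851, plus strand): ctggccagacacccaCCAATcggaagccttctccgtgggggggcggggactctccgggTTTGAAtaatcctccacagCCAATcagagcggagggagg
*Gtse1* (chr15:85859593-85859724, plus strand): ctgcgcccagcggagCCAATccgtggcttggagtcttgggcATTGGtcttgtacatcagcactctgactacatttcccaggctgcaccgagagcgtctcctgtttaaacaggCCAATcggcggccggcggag
*Spc25* (chr2:69206217-69206283, minus strand): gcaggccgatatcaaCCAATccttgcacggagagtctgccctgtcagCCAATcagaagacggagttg
*Kif14* (chr1:136466195-136466380, plus strand): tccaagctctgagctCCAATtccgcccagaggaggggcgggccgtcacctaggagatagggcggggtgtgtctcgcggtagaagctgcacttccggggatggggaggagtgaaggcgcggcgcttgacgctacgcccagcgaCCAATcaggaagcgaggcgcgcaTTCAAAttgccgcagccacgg
*Pttg1* (chr11:43426252-43426313, minus strand): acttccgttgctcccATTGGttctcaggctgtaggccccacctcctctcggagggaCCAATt
*Bub1* (chr2:127831882-127831942, minus strand): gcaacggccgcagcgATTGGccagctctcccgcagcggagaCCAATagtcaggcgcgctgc
The peak of *Tubb4b*, which encodes a beta tubulin, had 4 boxes in its central 200 bases, with 39, 33 and 66 bases from one box to the next, and TTTGAA lay between 2 of them. *Hmgb2*, which encodes a DNA-bending chromatin protein, had 2 boxes 62 bases apart with TTTGAA between them. In *Gtse1*, for a microtubule-binding protein of G2 and mitosis, 3 boxes were spaced by 26 and 71 bases. The boxes of *Spc25*, a subunit of the NDC80 complex that grips microtubules at the kinetochore, were 32 bases apart. In *Kif14*, for a kinesin of cytokinesis, they were 127 bases apart. *Pttg1*, which encodes securin, the inhibitor of separase, and *Bub1*, which encodes a checkpoint kinase, had box distances of 41 and 26 bases, with the boxes in opposite orientations.

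Counted over the strongest assigned peak within 1000 bases of the start of each gene (n = 32 genes), 31 of 32 peaks (96.9%, 95% Wilson interval 84.3 to 99.4) held CCAAT or its reverse complement in the central 200 bases. *Tacc3*, for a spindle protein, was the exception, although a stronger peak near one of its starts, assigned to *Tmem129*, held 2 boxes. The 200 bases ran past the edges of the 12 peaks that were narrower, and within the peak itself 30 of 32 held CCAAT (93.8%, next to 93.1% of other genes), the narrow peak of *Mki67* being the other without it. The same share was 92.7% for the strongest start-proximal peaks of 2327 other protein-coding genes. At least 2 boxes stood in 26 of 32 peaks of the set (81.2%, 64.7 to 91.1) against 54.2% (52.2 to 56.2) of the other genes, and in 79.3% against 59.7% where both were limited to peaks with a mean signal of at least 20. The share with 3 or more boxes was 5 of 32 (15.6%, 6.86 to 31.8) against 18.5%. Neighbouring boxes 20 to 45 bases apart, counted from the first base of one box to that of the next, occurred in 19 of 32 peaks (59.4%, 42.3 to 74.5) against 33.1%. Counted over distances between neighbouring boxes, and so only where there were 2 or more, 21 of 32 (65.6%, 48.3 to 79.6) fell in this range against 50.3%, a value inside the interval of the set. The median distance between neighbouring boxes was 41 bases in the set (22 to 147) and also 41 in the other genes. Of 63 boxes in the set, 41 (65.1%, 52.8 to 75.7) read CCAAT on the strand of the gene, against 50.4% of 3978 boxes. The median GC content of these 200 bases was 59.8% in the set and 60.5% in the other genes. These shares are descriptions of sequence, and the intervals cover counting error only. Those over boxes or over distances treat several from the same peak as independent and may be too narrow. No test of the set was made.

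**Figure D1:**
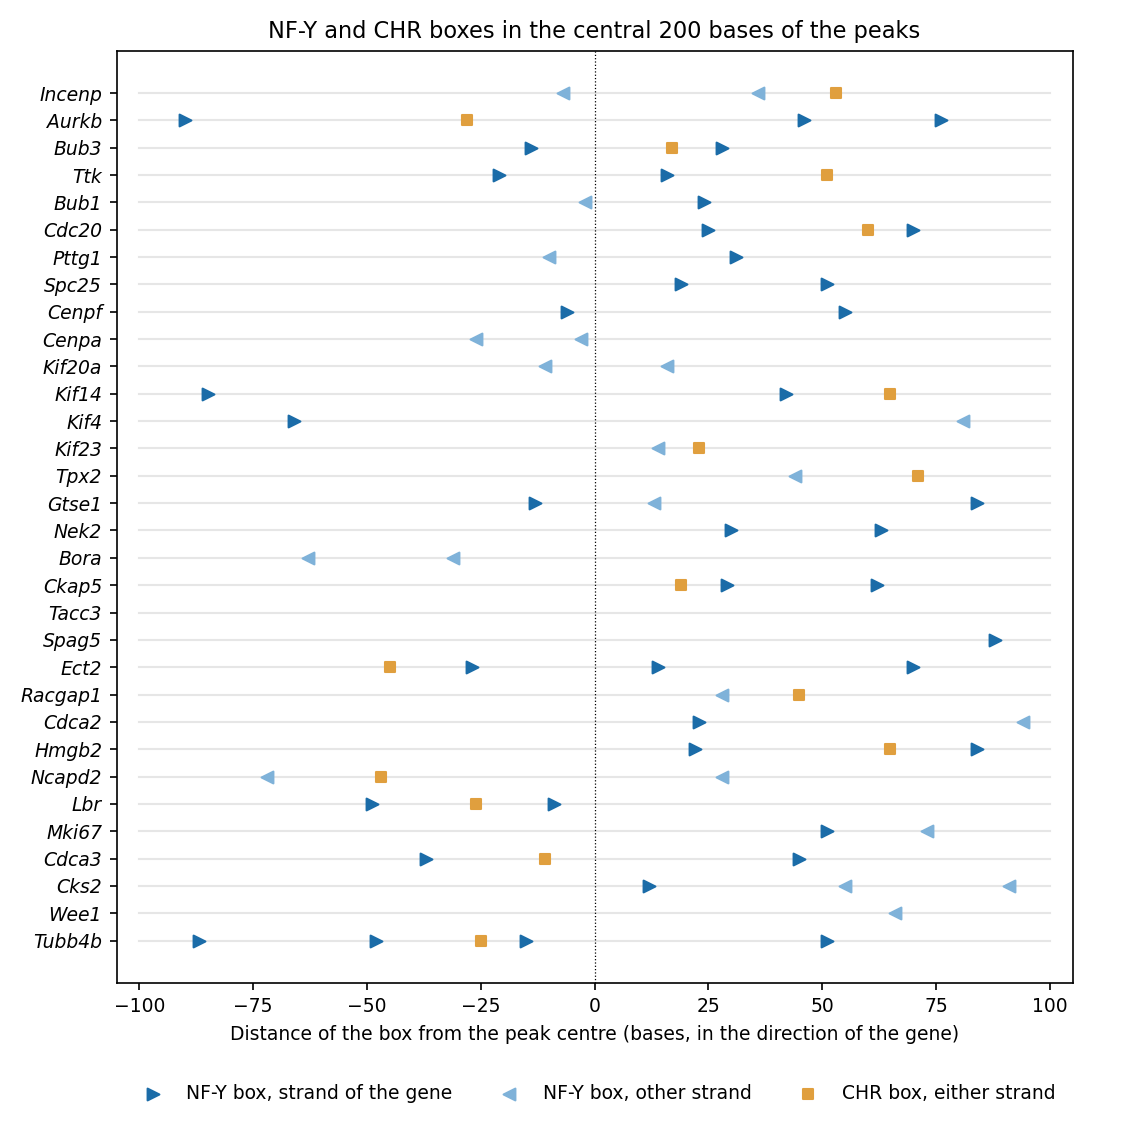
Positions of NF-Y boxes (CCAAT, arrowheads pointing along the strand they read on, dark for the strand of the gene and light for the other) and CHR boxes (the letters TTTGAA on either strand, squares) relative to the centre of the strongest start-proximal NF-YA peak of each of 32 genes. The x axis is in bases in the direction of the gene, grey lines span the 200 bases searched, and 26 of the 32 genes have 2 or more NF-Y boxes.

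TTTGAA was searched on both strands in the same 200 bases. It was found in 16 of 32 peaks (50%, 33.6 to 66.4) against 160 of 2327 (6.88%, 5.92 to 7.98). All 16 also held CCAAT in these bases, while 151 of the 160 did. The 160 distances below thus include peaks without CCAAT in the 200 bases, and the counts are not fully alike. From TTTGAA to the nearest CCAAT the median distance between first bases was 17.5 bases (9 to 62, n = 16), and it was 36.5 bases (4 to 153, n = 160) in the other genes, with 15 of 16 distances at or below 45 bases in the set and 93 of 160 in the others. The order of the 2 elements was not fixed, since TTTGAA lay downstream of its nearest CCAAT on the gene in 9 of 16 peaks and upstream in the rest. Windows of 30 bases show how closely the elements stand together, here for genes of 7 roles and with capitals as above.
*Tubb4b* (chr2:25224879-25224908, minus strand): atcaatcaTTTGAAacacCCAATggattga
*Cdc20* (chr4:118437340-118437369, minus strand): agttgggtTTTGAAggagCCAATgaacgct
*Ckap5* (chr2:91526710-91526739, plus strand): cagctctTTCAAAcggaCCAATaaaggggc
*Bub3* (chr7:131560320-131560349, plus strand): gttggcgTTCAAAatcagCCAATgataggc
*Lbr* (chr1:181842421-181842450, minus strand): atgaTTCAAAaggtcgagggaCCAATgggg
*Ect2* (chr3:27153967-27153996, minus strand): cggaTTTGAAacacactcacaaCCAATcag
*Kif23* (chr9:61946785-61946814, minus strand): ggccgctgATTGGcctgTTTGAAatgcgcc
*Racgap1* (chr15:99651643-99651672, minus strand): tgtgATTGGctggtgcgtgatTTTGAAccg
The first base of TTTGAA was 10 bases from that of CCAAT in *Tubb4b*, *Cdc20* and *Ckap5*, 11 bases in *Bub3*, 17 bases in *Lbr* and *Racgap1*, 18 bases in *Ect2* and 9 bases in *Kif23*. In *Kif23* and *Racgap1*, which encode the 2 partners of the centralspindlin complex at the midzone, CCAAT comes first and on the opposite strand. Peaks with TTTGAA were not the stronger ones. Their control means had a median of 55.0 (26.5 to 525, n = 16), against 82.8 (10.0 to 849, n = 16) for those without.

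**Figure D2:**
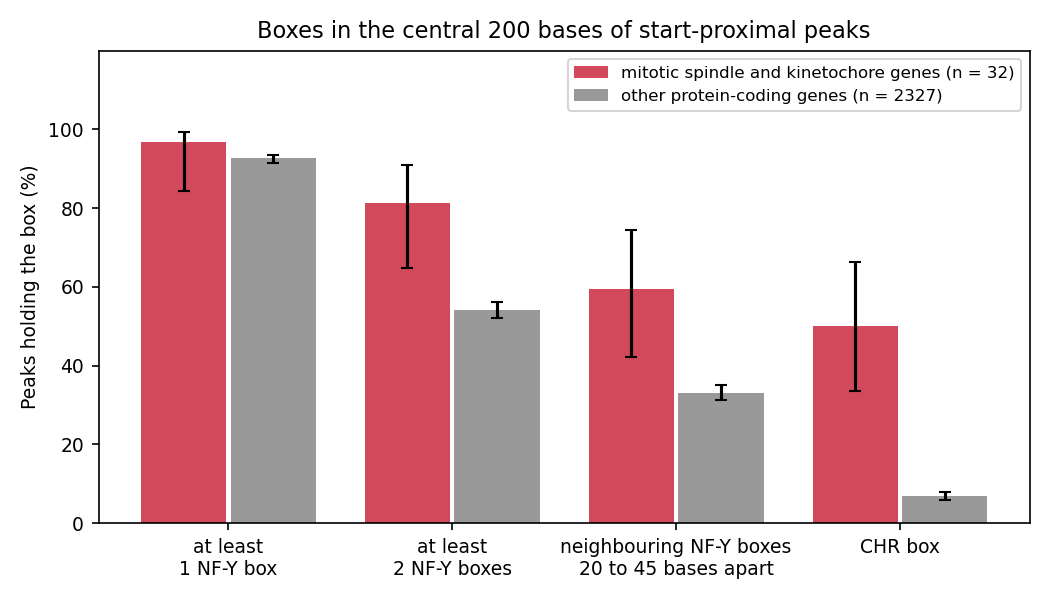
Share of start-proximal peaks that hold the named boxes in their central 200 bases, for the strongest peak of 32 mitotic spindle and kinetochore genes (red) and of 2327 other protein-coding genes (grey). Bars start at 0, error bars are 95% Wilson intervals, and of the 4 shares plotted the gap is widest for the CHR box, at 50% against 6.88%.

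Genes of the set were also divided by the number of boxes in the promoter. RefSeq promoters of 300 bases (250 before to 50 after the start, GRCm38) were matched for 51 of the 60 genes. Those of *Aurkb*, *Bora*, *Cdca2*, *Foxm1*, *Incenp*, *Kif20a*, *Smc4*, *Tpx2* and *Wee1* were not matched. All 24 genes with 2 or more CCAAT in these 300 bases had an NF-YA peak within 1000 bases of an annotated start (100%, 86.2 to 100), against 1225 of 2345 other protein-coding genes with as many boxes (52.2%, 50.2 to 54.3). With 1 box the numbers were 3 of 14 (21.4%, 7.57 to 47.6) against 16.2%, and with no box 3 of 13 (23.1%, 8.18 to 50.3) against 4.94%. The 3 genes with a peak and 1 box were *Kif14*, *Kif23* and *Racgap1*, and the 3 with a peak and no box were *Nusap1*, *Pttg1* and *Tacc3*. *Pttg1* has both of its boxes in the 200 bases under its peak, although the RefSeq window of 300 bases holds none. The peak beside *Nusap1*, assigned to *Oip5*, and a peak beside *Tacc3*, assigned to *Tmem129*, also held 2 boxes, while the assigned peak of *Tacc3* held none. The peak of *Kif14* held 2 boxes as well. Expression was not measured in these files. TTTGAA in the same promoters was found in 21 of 27 genes with an assigned peak (77.8%), in 14 of 24 without one (58.3%) and in 18.3% of other genes. The letters of the CHR were thus frequent in the set with and without a peak, while 2 or more CCAAT stood in 20 of 27 and in 4 of 24 promoters.

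**Figure D3:**
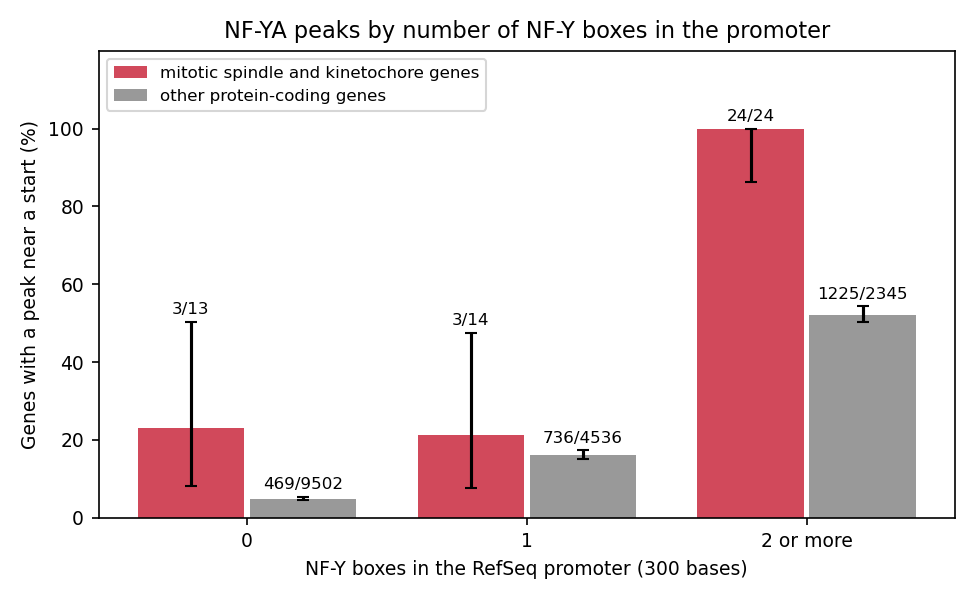
Share of genes with an NF-YA peak within 1000 bases of any annotated start, by the number of NF-Y boxes (CCAAT on either strand) in the RefSeq promoter, for mitotic spindle and kinetochore genes (red) and other protein-coding genes (grey). Bars start at 0, error bars are 95% Wilson intervals, numbers above the bars are genes with a peak over all genes, and all 24 genes of the set with 2 or more boxes have a peak.

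Of the 26 genes without an assigned peak, 21 had none within 1000 bases of any annotated start. These were *Birc5*, *Mad2l1*, *Cenpe*, *Ckap2*, *Espl1*, *Foxm1*, *Kif11*, *Kif18a*, *Kif20b*, *Kif2c*, *Knstrn*, *Ncapg*, *Ncaph*, *Ndc80*, *Nuf2*, *Prc1*, *Sgo1*, *Smc2*, *Smc4*, *Arhgap11a* and *Tuba1c*. They include *Mad2l1*, for the checkpoint protein MAD2, and *Ndc80* and *Nuf2*, for partners of SPC25 in one complex. For the other 5 genes the table gives a peak near the start to a neighbouring gene. A peak 37 bases from the nearest start of *Cks1b*, which encodes a CDK-binding subunit, was assigned to *Shc1* and had signals of 424 and 385 in the control and 307 and 347 in the Taf4asKO libraries, and a weak peak beside it had 9, 7, 9 and 19 in the same order. The peak 133 bases from *Hmmr*, for a spindle pole protein, was assigned to *Nudcd2* and had 157 and 124 in the control against 129 and 142. For *Nusap1*, a microtubule bundler, the peak 10 bases away was assigned to *Oip5*, with 151 and 166 against 134 and 157. *Cdca8*, which encodes borealin of the chromosomal passenger complex, lay 29 bases from a peak assigned to *C1orf109*, with 137 and 163 against 121 and 118. For *Kif22*, a chromokinesin, a peak 832 bases away was assigned to *Maz*, with 171 and 192 against 118 and 117. Among the strongest peaks beside these 5 genes, it had the largest fold change (log2 fold change -0.62, SE 0.16, limma adjusted p = 0.0979). *Cks1b*, *Hmmr*, *Cdca8* and *Kif22* are the 4 genes without an assigned peak that had 2 or more CCAAT in the promoter. With neighbours' peaks included, 37 of 60 genes (61.7%, 49.0 to 72.9) had a peak near a start. Under the same rule the share of other protein-coding genes was 4.94%, 16.2% and 52.2% with 0, 1 and 2 or more CCAAT in the promoter.

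By assigned peaks, 34 of 60 genes (56.7%, 44.1 to 68.4) were bound against 3203 of 21951 protein-coding genes (14.6%), and 32 of 60 (53.3%) against 10.7% had a peak within 1000 bases of the start. The median distance of these 32 peaks from the start was 73 bases (1 to 625), and 23 of 32 lay upstream (71.9%, against 77.1% of other genes). A protein-coding neighbour on the other strand started within 1000 bases of the peak in 7 of 32 cases (*Bora*, *Cdca2*, *Cdca3*, *Kif20a*, *Kif4*, *Ncapd2* and *Tacc3*), where binding cannot be assigned to either gene alone. The peaks of the set ranged from among the strongest in the table to the weakest. The control mean of the 32 peaks had a median of 69.2 normalised reads (10.0 to 849), next to 62.0 for other protein-coding genes (n = 2327). At a mean signal of at least 100 there were 11 of the 43 peaks (25.6%), compared with 13.5% of all peaks. In control replicate 1 the median of the 32 peaks was 61.5 against 65.0 for other genes, and in control replicate 2 it was 73.5 against 59.0, so that the order of the 2 medians differed between the control libraries.

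**Figure D4:**
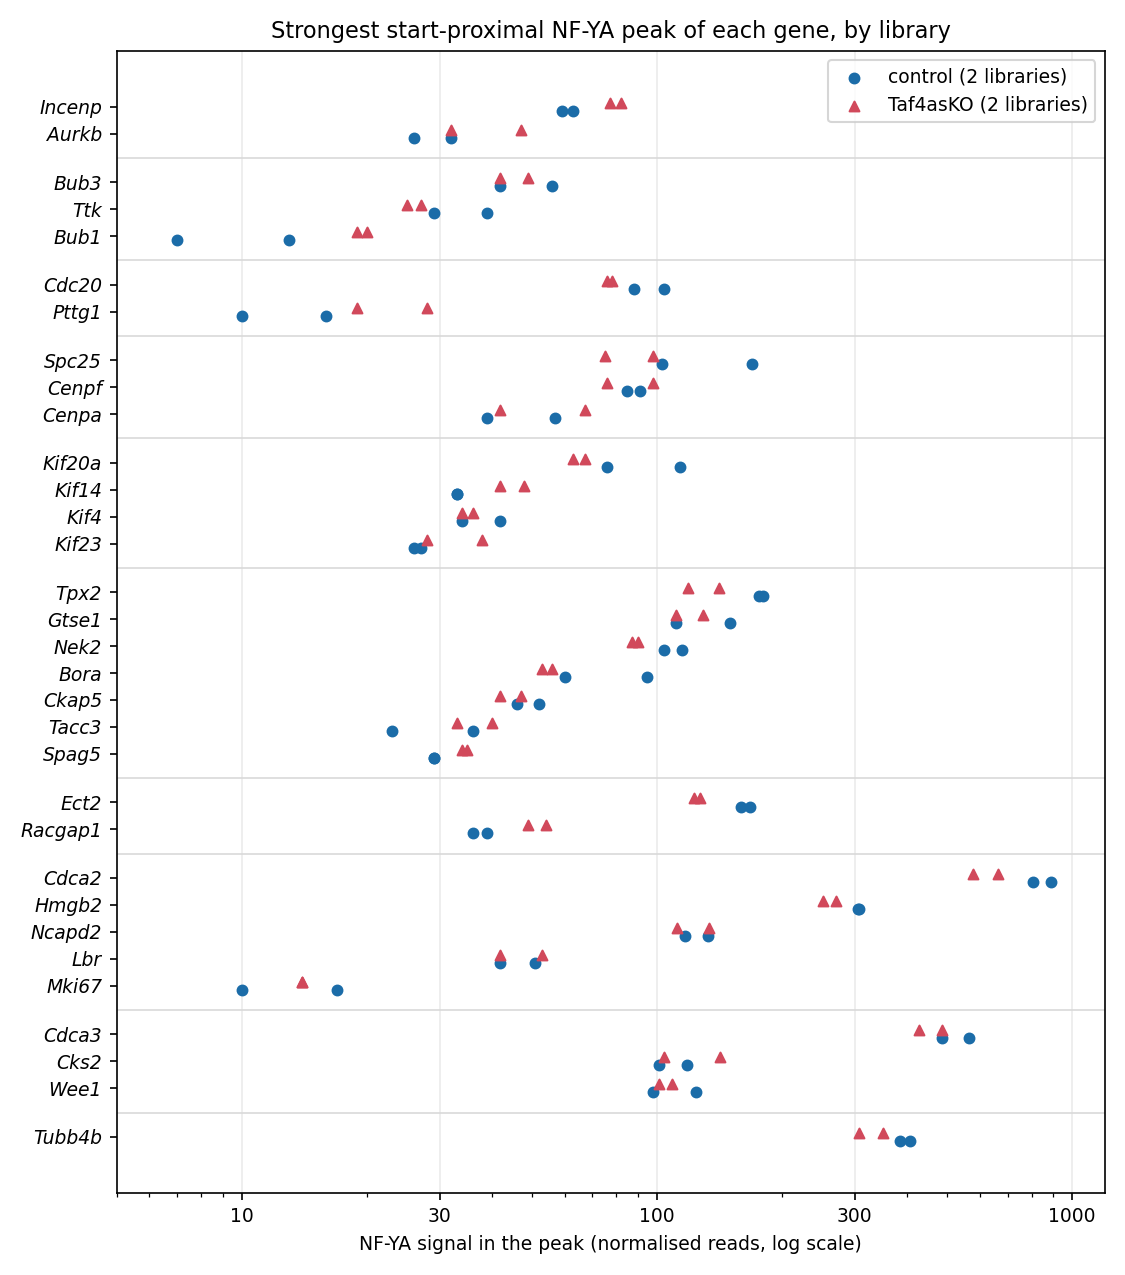
NF-YA signal in normalised reads (x axis, log scale) in the strongest start-proximal peak of each of 32 genes, with 2 control libraries (circles) and 2 Taf4asKO libraries (triangles). Points of equal value lie on each other, grey lines separate the roles in the order of passenger complex, checkpoint, anaphase onset, kinetochore, kinesins, spindle proteins, cytokinesis, chromosome structure, CDK regulators and tubulin, and signals run from 7 to 890.

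Values that follow are for control replicates 1 and 2 and then for Taf4asKO replicates 1 and 2. For comparison, 28.6% of all tested peaks were lower and 19.3% higher in Taf4asKO without overlap. Among those with a mean of at least 100, the shares were 59.0% and 2.68%. Genes of chromosome structure held the strongest peak of the set. *Cdca2*, which encodes a chromatin-bound subunit of protein phosphatase 1 that acts at mitotic exit, had a peak of 741 bases at its start (chr14:67715457-67716197) that ranked 14 of all 7196. Its signals were 808 and 890 in the control and 577 and 664 in Taf4asKO, and the groups did not overlap. The peak of *Hmgb2* (chr8:57511550-57511947) had 305 and 307 in the control and 251 and 270 in Taf4asKO, again without overlap, and a second peak 4072 bases upstream had only 3, 3, 7 and 6. *Ncapd2*, for a condensin subunit, had 133 and 117 against 112 and 134, which overlapped. *Lbr*, for the lamin B receptor, and *Mki67*, for the Ki-67 protein of the chromosome surface, had control means of 46.5 and 13.5, and both overlapped between genotypes.

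Among regulators of cyclin-dependent kinases, *Cdca3*, whose product promotes degradation of the kinase WEE1 at mitotic entry, had 564 and 486 in the control and 429 and 487 in Taf4asKO across a peak of 966 bases (chr6:124829335-124830300, rank 47). Its groups overlapped by 1 normalised read. *Cks2*, for a CDK-binding subunit, had 118 and 101 against 104 and 142. *Wee1*, for the kinase that holds CDK1 inactive, had 124 and 98 against 109 and 101, and a second peak 7025 bases upstream had 7, 0, 4 and 1. All 3 tested peaks in this role overlapped between genotypes, as did 52.1% of all tested peaks. *Tubb4b* (chr2:25224657-25225093, rank 106) was the tubulin gene with a peak, at 386 and 408 against 307 and 351. A smaller peak 519 bases upstream had 14 and 20 against 11 and 13. Both peaks were lower in both Taf4asKO libraries, as were 28.6% of all tested peaks. Such a decrease was seen in 59.0% of strong tested peaks (mean 100 or more) and in 20.8% of weaker ones.

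Of the spindle and centrosome proteins, 7 of 11 genes had a peak. *Tpx2*, which activates Aurora A on spindle microtubules, was highest with 180 and 176 in the control and 119 and 141 in Taf4asKO. *Gtse1* had 111 and 150 against 111 and 129, and *Nek2*, a kinase of centrosome separation, 115 and 104 against 87 and 90. *Bora*, whose product helps Aurora A to activate PLK1, had 60 and 95 against 53 and 56 at its stronger peak and 10, 10, 6 and 11 at the weaker one 368 bases into the gene. The genotypes did not overlap for *Tpx2*, *Nek2* and the stronger *Bora* peak, all lower in Taf4asKO, and for *Spag5*, which was higher (29 and 29 against 34 and 35). The shares over all tested peaks were 28.6% lower and 19.3% higher. *Ckap5*, for a microtubule polymerase, and its partner gene *Tacc3* had control means of 49.0 and 29.5 and overlapped. Beside *Tacc3*, a further peak 63 bases from one of its starts belonged to *Tmem129* in the table and held 2 CCAAT boxes.

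In cytokinesis, *Ect2*, the exchange factor that activates RhoA at the cleavage site, had 168 and 160 in the control and 123 and 127 in Taf4asKO, and 5, 7, 11 and 7 at a weak intronic peak. *Racgap1*, its binding partner, had 39 and 36 against 49 and 54. The genotypes did not overlap at the stronger *Ect2* peak, which was lower, or at *Racgap1*, which was higher. Such separation was ordinary, with 28.6% of all tested peaks lower and 19.3% higher without overlap. *Anln*, for the scaffold anillin, was represented by an intronic peak 3175 bases from the start with 15, 3, 11 and 10, and it was not tested because its mean was below 10.

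Peaks of kinesin genes, found in 4 of 9 genes, had control means between 20.5 and 95.0. *Kif20a*, for a kinesin of the anaphase midzone, had 76 and 114 in the control and 63 and 67 in Taf4asKO at its stronger peak, 279 bases into the gene in the UTR, and 26, 16, 13 and 27 at a second peak at the start. *Kif14* had 33 and 33 against 42 and 48, higher in both Taf4asKO libraries. *Kif4*, a chromokinesin, had 34 and 42 against 34 and 36, and 21, 20, 27 and 20 at a second peak that lay in a coding exon of the neighbour *Pdzd11*. Of the 2 peaks in *Kif20a* and *Kif4*, respectively, only the stronger one held CCAAT, as was also seen in *Bora*, *Bub3*, *Ect2*, *Ttk*, *Tubb4b* and *Wee1*. *Hmgb2*, the remaining gene with 2 peaks, had a box in both.

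Among kinetochore and checkpoint genes, control means ran from 136.5 at *Spc25* down to 2.5 at *Bub1b*. *Spc25* had 103 and 170 in the control and 75 and 98 in Taf4asKO, and the 2 control libraries differed from each other more than the groups did at their nearest values. *Cenpf* and *Cenpa*, for an outer kinetochore protein and the centromeric histone H3 variant, had control means of 88.0 and 48.0 and overlapped. *Bub3*, a checkpoint adaptor, had 56 and 42 against 42 and 49, and 10, 7, 6 and 10 at its second peak. *Ttk*, the checkpoint kinase MPS1, was lower in Taf4asKO at one peak (29 and 39 against 25 and 27) and overlapped at the other (13, 10, 9 and 11). *Bub1* had 13 and 7 against 19 and 20. *Bub1b*, which encodes the checkpoint protein BUBR1, had a single peak 6849 bases upstream with 2, 3, 9 and 8, too weak to be tested, and the 200 bases around its centre held 4 CCAAT boxes.

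At anaphase onset, *Cdc20*, the activator of the anaphase-promoting complex, had 104 and 88 in the control against 78 and 76 in Taf4asKO, and *Pttg1* had 16 and 10 against 19 and 28. In the chromosomal passenger complex, the scaffold gene *Incenp* had 63 and 59 against 77 and 82, and *Aurkb*, for the kinase of the complex, had 32 and 26 against 32 and 47. *Cdc20* was lower and *Pttg1* and *Incenp* were higher in both Taf4asKO libraries.

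No peak of the set passed the test for a difference between genotypes. Of the 43 peaks 36 had a mean of at least 10 and were tested with limma on log2(signal + 1), and 0 of 36 passed an adjusted p of 0.05 over all peaks, next to 0.948% of all 4746 tested peaks. At an unadjusted p under 0.05 there were 6 of 36 (16.7%), 5 lower and 1 higher in Taf4asKO, next to 17.9% of all tested peaks. The smallest adjusted p belonged to *Cdca2* (log2 fold change -0.45, SE 0.11, limma adjusted p = 0.0979). Every one of the 36 log2 fold changes was below 1 in size, as were 92.4% of all. The 4 largest decreases were those of *Spc25* (log2 fold change -0.62, SE 0.25), *Kif20a* (-0.51, SE 0.23), *Tpx2* (-0.46, SE 0.16) and *Bora* (-0.46, SE 0.24), with limma adjusted p-values of 0.231, 0.273, 0.181 and 0.340. The 4 largest increases were those of *Bub1* (0.95, SE 0.42), *Pttg1* (0.82, SE 0.38), *Racgap1* (0.45, SE 0.22) and *Kif14* (0.43, SE 0.24), with limma adjusted p-values of 0.272, 0.295, 0.322 and 0.356. At *Bub1* and *Pttg1* the signals of control replicate 2 rested on only 2 and 3 reads. Without control replicate 2, the library with the fewest reads, the log2 fold changes were -0.47 for *Tpx2*, -0.26 for *Spc25*, -0.22 for *Kif20a*, -0.14 for *Bora* and -0.38 for *Cdca2*, and 0.55 for *Bub1* and 0.50 for *Pttg1*. The order of the decreases also changed without Taf4asKO replicate 1, with -0.47 for *Kif20a*, -0.43 for *Spc25* and -0.33 for *Tpx2*, and is not fixed by these libraries.

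Both Taf4asKO libraries were below both control libraries in 12 of 36 tested peaks (33.3%, next to 28.6% of all tested peaks) and above them in 7 of 36 (19.4%, next to 19.3%), while 17 overlapped. The direction went with the strength of the peak, in the set as in the whole table. Of the 11 peaks with a mean of at least 100, 6 were lower without overlap (54.5%, next to 59.0% of all such peaks) and 0 were higher (next to 2.68%), and their median log2 fold change was -0.23, next to -0.22. The 25 weaker peaks had 6 lower (24%, next to 20.8% of all such peaks), 7 higher (28%, next to 23.5%) and a median of 0.03, next to 0.05. All 7 peaks that were higher without overlap (*Bub1*, *Pttg1*, *Racgap1*, *Kif14*, *Incenp*, *Spag5* and *Kif23*) had between 2 and 18 reads in control replicate 2. The median over the 43 peaks of the set was 12 reads in that library. Low reads were also found at peaks that were lower (12 at the stronger *Ttk* peak) or overlapped (8 at *Aurkb*). The median over all 36 was -0.10 and that of all tested peaks -0.04. Scaling the libraries to equal totals turned the median of the set to 0.04 and the split from 22 negative and 14 positive values to 14 and 22, with the median of all tested peaks at 0.10.

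**Figure D5:**
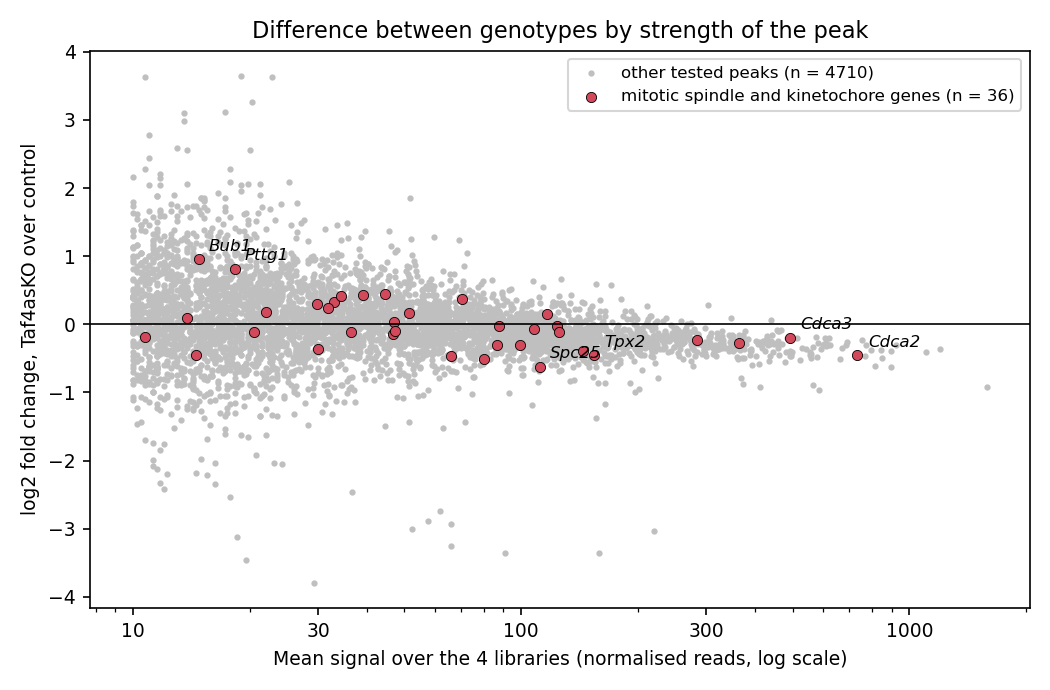
Log2 fold change of NF-YA signal, Taf4asKO over control (y axis), against the mean signal over the 4 libraries in normalised reads (x axis, log scale), for 36 tested peaks of mitotic spindle and kinetochore genes (red) and 4710 other tested peaks (grey). The red points lie within the grey cloud, with a median of -0.23 at a mean of at least 100 and of 0.03 below it.

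A further list of 104 genes of mitotic spindle, kinetochore and cohesion that are not in the set was counted for comparison. Of these, 36 (34.6%, 26.2 to 44.2) had a peak, and 33 had one within 1000 bases of the start with a median control mean of 89.0. In these 33 peaks, 2 or more CCAAT stood in 22 (66.7%, 49.6 to 80.2) and TTTGAA in 11 (33.3%, 19.8 to 50.4). With limma, 0 of 34 tested peaks passed the adjusted threshold (next to 0.948% of all tested peaks) and 7 had an unadjusted p under 0.05 (20.6%, next to 17.9%). Without overlap, 19 of 34 were lower in Taf4asKO (55.9%, next to 28.6% of all tested peaks and 59.0% of those with a mean of at least 100) and 3 higher (8.82%, next to 19.3% and 2.68%), with a median log2 fold change of -0.20, and 15 of these 34 peaks had a mean of at least 100.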

How the data were processed

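CUT&RUN was done on cultured MuSCs with an antibody against NF-YA, and 4 of the 8 labelled libraries (2 control, 2 Taf4asKO) have values in the table used here. Those of the IgG libraries were not analysed here. Per the submitters' processing notes the tools were Trimmomatic 0.39, STAR 2.7.11a, Picard 3.1.1, featureCounts and DESeq2 1.36.0 with genome mm10. Peaks were called by the authors in each library against IgG and unified, and 4716 of the 7196 carry a gene under the authors' limit of 10000 bases to its start, which was not always the gene with the nearest annotated transcript start. The deposited values are a score, the read counts normalised by the authors with DESeq2 and rounded to whole numbers, so that no count model was used. The value of 1 read, found from the gaps between values, was 1.04, 3.26, 0.432 and 0.681 (control replicates 1 and 2, Taf4asKO replicates 1 and 2).

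The genotype test was that of limma 3.58.1 in R 4.3.3, with variances moderated along a trend. It was run on log2(value + 1), a scale that understates the change of low peaks, for all 4746 peaks whose mean value reached 10. Its p-values were corrected by Benjamini-Hochberg across those peaks, and the script was tested on simulated data. Letters were read from GRCm38 and gene starts from GENCODE M21 with Python 3.11.15, pandas 2.3.3 and pysam 0.24.0.

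The genes and lists were chosen with earlier results of these data known. By rule, signals in every library are given for the 12 strongest peaks, the 4 largest increases and decreases, the strongest peak of each role and further peaks of genes with 2 or more. Signals of other genes were picked with values known. As alternatives, libraries were rescaled or left out in turn, the minimum was dropped, 5 was added in place of 1, the replicate number entered as a block, values were weighted by reads, the threshold was loosened and windows were changed.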

Additional observations from a re-analysis of the deposited data

How the results depend on the processing

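The 0 calls in the set held with equal totals, no minimum, a pseudocount of 5, the replicate block and without each library, whereas 1 peak (*Cdca2*) was called with libraries scaled to equal medians (limma adjusted p = 0.0392), with weights from reads (limma adjusted p = 0.0208) or at a threshold of 0.1. Over all alternatives the adjusted p of *Cdca2* ranged from 0.0208 to 0.739 and its log2 fold change from -0.55 to -0.31. Calls over all tested peaks were 45 in the reported fit, 129 with equal medians, 61 with equal totals, 0 with no minimum, 58 with a pseudocount of 5, 31 with the replicate block, 327 with weights from reads and 0 without any single library. With a single library left out in a group the other is assumed to vary like the rest, and the 0 calls then say nothing about stability. The 9 log2 fold changes named with the test had 1 direction in all 10 alternatives, but their size moved, with ranges of -0.98 to -0.26 for *Spc25*, -0.80 to -0.22 for *Kif20a*, -0.79 to -0.14 for *Bora*, -0.58 to -0.31 for *Tpx2*, 0.55 to 1.36 for *Bub1*, 0.50 to 1.13 for *Pttg1*, 0.38 to 0.59 for *Racgap1* and 0.34 to 0.57 for *Kif14*. The median log2 fold change of the set was 0.04 with equal totals and -0.18 to 0.03 with a library left out, with 0.03 without control replicate 1. The replicate numbers are not said to pair libraries, and deviations of equal-numbered libraries had r = -0.09 over 4746 peaks and r = 0.26 over the 971 strongest of them, whose mean reached 100. The replicate block left 0 calls in the set. The median control signal of start-proximal peaks was 61.5 to 73.5 with 1 control library left out. The share with TTTGAA was 50% of peaks and 76.0% of the RefSeq promoters matched to these genes, an alternative chosen after seeing the data, in which the window is longer and lies at the start. The number of genes with a peak was 34 and ran from 32 to 37 under other rules. The share of all peaks of the set with CCAAT in the central 200 bases was 79.1%, next to 78.5% of all 7196 peaks. It was 76.7% within the whole peak and 69.8% in the central 100 bases. The share of start-proximal peaks with 2 or more boxes was 81.2%, 78.1% within the whole peak and 84.4% in the central 300 bases. Depth limited the weak peaks most, since 1 read is worth 3.26 normalised reads in control replicate 2.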
